A study of Mus musculus with 4 samples.

Results

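The genes described here are 46 effectors of the type I interferon response, the proteins that a cell makes after interferon to hinder a virus. They were listed by gene symbol, and the list was chosen with earlier results of these data known. Their shares beside those of all tested genes are therefore a description, not a test of the list. Of the 46, 44 have a row in the count table of 21834 genes and Mx1 and Mx2 were not analysed here. All 44 passed the filter on low counts, among 11448 genes tested.

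The libraries held 10037338 to 14097638 counts. RNA was sequenced from mouse bone marrow derived monocytes and macrophages (BMDMs) kept for 3 days with RANKL, the cytokine under which such precursors become osteoclasts, the cells that resorb bone. The genotype labels form 2 groups of 2 libraries, Nat10 conditional knockout (cKO) and wild type (WT). Both groups had the same RANKL induction, a wash with 100 μg/mL cycloheximide (which stalls ribosomes on the message) before the cells were lysed, and depletion of ribosomal RNA. The product of Nat10 acetylates cytidine in RNA, giving N4-acetylcytidine, and the comparison asks what its loss changes during osteoclast formation. The promoter that drives the deletion, the exons deleted, and the age and strain of the mice are unknown here. Whether the libraries of a group are from different animals is not stated by any label. The p-values therefore reflect the spread among these libraries, which may be technical.

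Type I interferons bind a receptor of 2 chains, Ifnar1 and Ifnar2, whose kinases Jak1 and Tyk2 activate transcription factors, Stat2 among them. Stat2 and Irf9 are part of a complex that binds the interferon-stimulated response element (ISRE) in promoters and switches on the effector genes. In mouse osteoclast precursors RANKL itself induces interferon beta, which feeds back to restrain osteoclast formation. Macrophages are known to keep a low level of this response without infection.

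Most of the effector genes fell in the libraries carrying the Nat10 cKO label, called cKO libraries from here. Of the 44 tested, 38 fell and 1 rose at an adjusted p under 0.05 in the edgeR quasi-likelihood test, and 5 did not pass. Over all 11448 tested genes, 14.4% fell and 14.4% rose, 28.8% in all. Every effector gene had a mean of at least 10 CPM (a library's counts scaled to a total of 1000000, with TMM factors), and among the 7852 tested genes at that level 18.8% fell and 12.5% rose. The median log2 fold change of the 44 genes, cKO minus WT, was -0.84, beside 0.00745 for all tested genes. A fall of at least 1 on the log2 scale was called for 16 of the 44, against 2.33% of all tested genes. Both cKO libraries lay below both WT libraries for 40 of the 44 (31.3% of all tested genes) and above them for the other 4 (32.3%). The fall was called for 36 of the 38 genes in every other setting tried, the exceptions being Trim25 and Bst2.

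Summed over the 44 genes, the effectors took 0.595% and 0.605% of all counts in the cKO libraries, against 0.922% and 0.927% in WT. Their summed level was 5862 ± 106 CPM (SD, n = 2) against 9460 ± 23.3 CPM. The groups did not overlap, and an exact two-sided permutation test over the 4 libraries gave p = 0.333, the smallest it allows with 2 against 2. In bulk RNA, fewer cells of a type and less RNA per cell cannot be told apart.

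**Figure D1:**
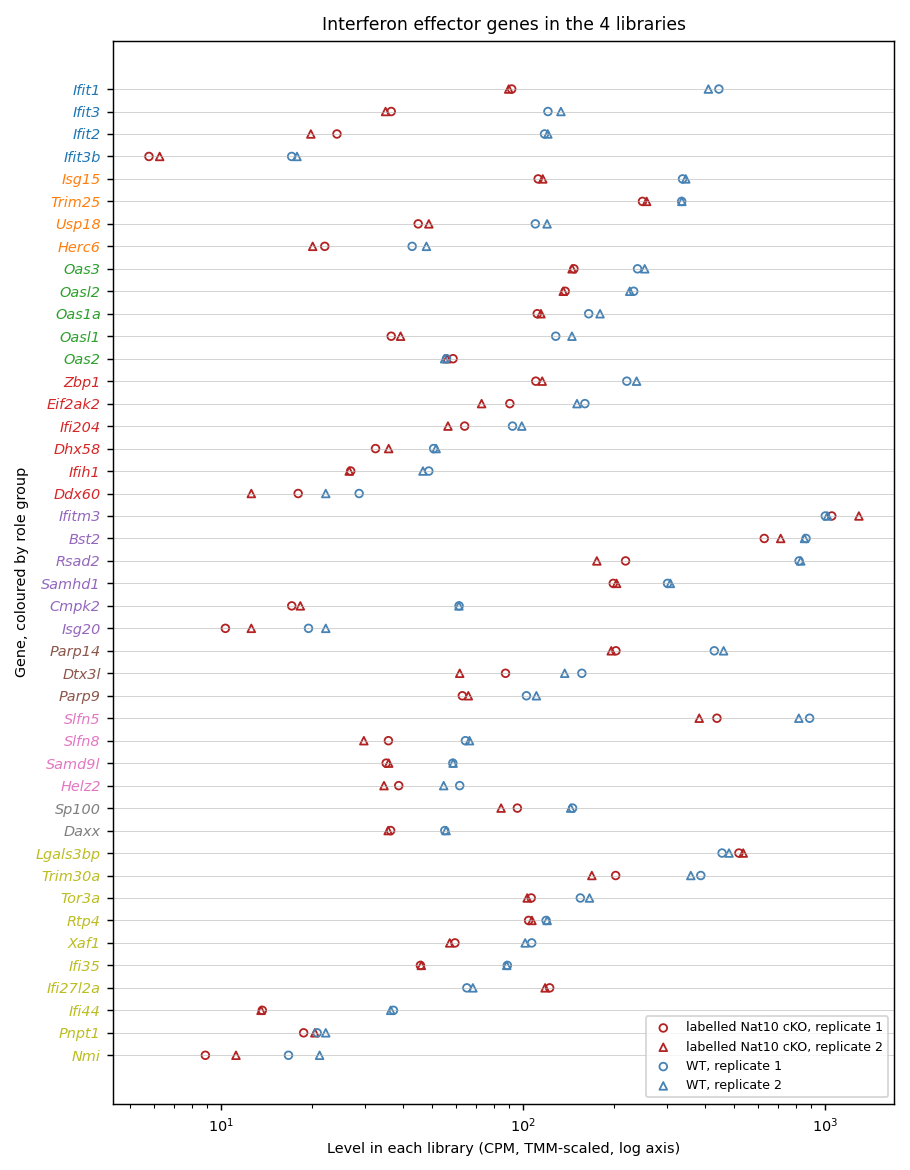
Level of each of the 44 effector genes in each library, in TMM-scaled CPM on a log axis, with genes coloured and ordered by role group. For 40 genes both cKO libraries (red) sit to the left of both WT libraries (blue), and for Oas2, Ifitm3, Lgals3bp and Ifi27l2a they sit to the right.

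Promoter sequences are shown first because the ISRE is what the effector genes are known to share. RefSeq promoter windows on GRCm38.p6, 250 bases before to 50 after each start site, matched 34 of the 46 genes by symbol. Those without a matched window are Usp18, Oas2, Dhx58, Zbp1, Ifi204, Mx1, Mx2, Parp9, Parp14, Rtp4, Ifi27l2a and Tor3a. The ISRE core was searched as GAAANNGAAA or, on the other strand, TTTCNNTTTC, where N is any base. It was found in the windows of 15 of the 34 genes (44.1%), and in 3.97% of the 9211 tested genes that have a window. Of these 15 genes, 12 have a match before the start site. The stretches below are given 5′ to 3′ on the strand of the gene, with the matches in capitals. They are shown for the IFIT genes with a match before the start site. Isg15, Rsad2 and Slfn8 are examples of other genes with falls of at least 1 on the log2 scale. Oas3 is shown because its neighbour Oas2 was not called, and Bst2 because its fall was small. Slfn5 and Trim30a also have a match before the start site and fell by at least 1, but are not printed. Oas1a and Ddx60, which have such a match too, are not printed either.
Ifit1, chr19:34640770-34640828, plus strand: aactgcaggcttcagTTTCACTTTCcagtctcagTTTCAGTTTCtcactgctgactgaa
Ifit3, chr19:34583358-34583431, plus strand: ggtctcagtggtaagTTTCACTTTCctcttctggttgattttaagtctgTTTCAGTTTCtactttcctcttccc
Ifit3b, chr19:34607754-34607827, plus strand: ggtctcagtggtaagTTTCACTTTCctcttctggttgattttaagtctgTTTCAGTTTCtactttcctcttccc
Isg15, chr4:156200860-156200911, minus strand: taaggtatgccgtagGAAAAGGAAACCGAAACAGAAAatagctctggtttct
Rsad2, chr12:26456548-26456587, minus strand: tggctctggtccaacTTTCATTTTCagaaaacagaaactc
Oas3, chr5:120777710-120777749, minus strand: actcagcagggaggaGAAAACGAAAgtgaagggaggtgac
Slfn8, chr11:83020834-83020873, minus strand: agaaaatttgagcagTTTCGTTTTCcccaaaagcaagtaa
Bst2, chr8:71537572-71537617, minus strand: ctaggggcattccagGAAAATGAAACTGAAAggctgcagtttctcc

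The stretches of Ifit3 and Ifit3b are identical over all 74 bases, and Ifit1 carries the same pair of matches closer together. In Isg15, 3 overlapping matches run on from each other, and in Bst2 2 matches overlap. All 12 genes with a match before the start fell, with a median log2 fold change of -1.03 and values from -2.24 to -0.36. Of 19 genes with no match, 17 fell, with a median of -0.84, and the range ran from -2.44 in Ifit2 to 0.17 in Lgals3bp. Ifit2, the gene with the largest fall, is thus among those without these letters in the windows searched. Of 3 genes with a match after the start only, Ifih1 and Eif2ak2 fell, and Ifitm3, whose window holds GAAAAGGAAA and GAAACCGAAA, was not called. The difference between genes with and without a match was not tested. A second motif, TTCNNNGAA, the gamma-activated site (GAS), reads the same on both strands and was found in 8 of the 34 genes (23.5%) and in 8.22% of the tested genes with a window. In Bst2 and in Ifitm3 it overlaps a match to the ISRE core.

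**Figure D2:**
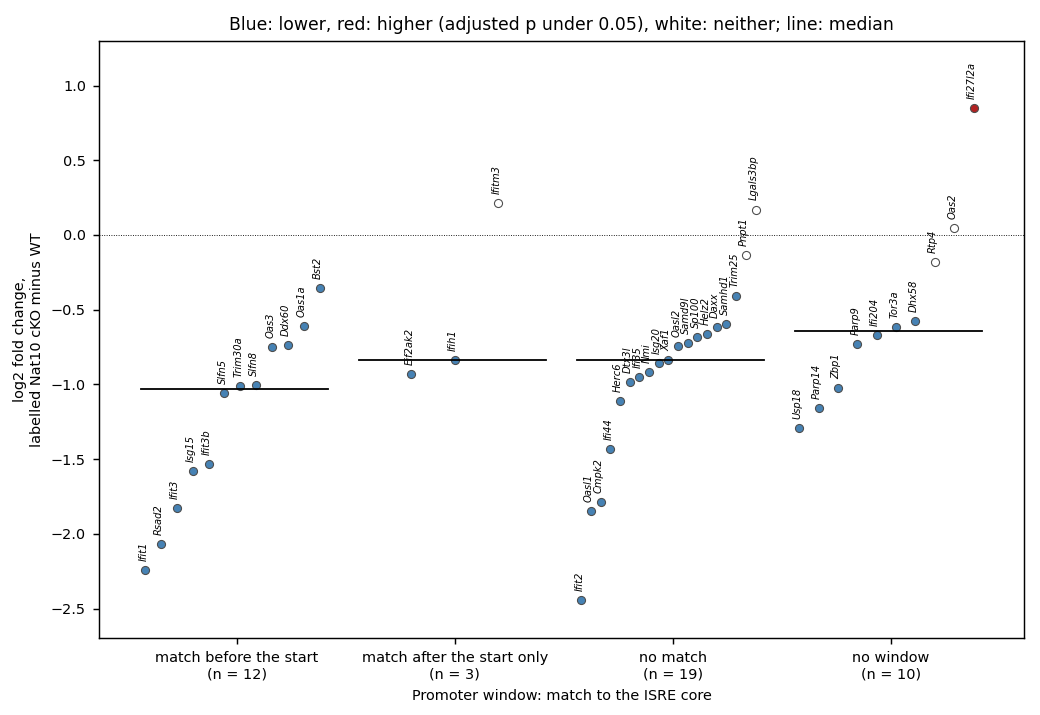
log2 fold change of each effector gene, cKO minus WT libraries, grouped by whether its promoter window holds a match to the ISRE core, with a line at the median of each class (blue lower, red higher, white not called). The 12 genes with a match before the start lie between -2.24 and -0.36, and the 19 without one span -2.44 to 0.17.

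The IFIT proteins, which bind foreign RNA and block its translation, showed the largest falls as a family. All 4 genes on the list fell, with a median log2 fold change of -2.03. They lie in one region of chromosome 19, in the order Ifit2, Ifit3, Ifit3b and Ifit1. From each listed gene to the next there are 7111 to 27469 bases. Relatives that are not on the list lie within 2 of these gaps, Ifit1bl1 between Ifit3 and Ifit3b and Ifit1bl2 between Ifit3b and Ifit1. Ifit1 (ENSMUSG00000034459, chromosome 19, 34618271 to 34627409 on GRCm39) stood at 91.8 and 89.7 CPM in the cKO libraries and at 446 and 411 CPM in WT. The groups lay far apart, with 4.72-fold less in the cKO libraries (log2 fold change -2.24, SE 0.0992, adjusted p = 1.11e-11). Ifit2 stood at 24.2 and 19.8 CPM against 118 and 121 CPM, the largest fall among the 44 genes (log2 fold change -2.44, SE 0.119, adjusted p = 3.60e-11). Ifit3 was at 36.6 and 35.1 CPM against 121 and 134 CPM (log2 fold change -1.83), and Ifit3b, much the weaker of the pair, was at 5.77 and 6.26 CPM against 17.1 and 17.9 CPM (-1.53). The transcripts of Ifit3 and Ifit3b are identical at 98.0% of 1697 aligned bases, so reads can be counted under either gene and their separate values are uncertain. With the counts of the pair summed, the log2 fold change was -1.79 (SE 0.104).

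The ISG15 system attaches a small ubiquitin-like protein to other proteins, and all 4 genes listed under it fell. Isg15, the modifier itself (ENSMUSG00000035692, chromosome 4, 156283912 to 156285253), stood at 112 and 116 CPM in the cKO libraries and at 338 and 346 CPM in WT. That is 2.99-fold less, with the libraries of each group close together (log2 fold change -1.58, SE 0.0958, adjusted p = 6.61e-10). Usp18, the protease that removes ISG15 and also dampens signalling at the interferon receptor, fell by 1.29 on the log2 scale, from 115 ± 7.31 to 46.9 ± 2.696 CPM (SD, n = 2). Herc6, the ligase that attaches ISG15 in the mouse, fell by 1.11. Trim25, a ubiquitin ligase known for activating the RNA sensor RIG-I, fell by 0.41 (249 and 257 CPM against 336 and 336 CPM, adjusted p = 0.00246). Its call did not hold without WT replicate 2 (log2 fold change -0.42, adjusted p = 0.0628).

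The 2′-5′ oligoadenylate synthetase (OAS) family, whose active members make the messenger that switches on the ribonuclease RNase L, was uneven. Of its 5 genes on the list 4 fell. Oasl1 (ENSMUSG00000041827, chromosome 5, 115061299 to 115075974), which lacks synthetase activity and in the mouse restrains translation of Irf7, stood at 36.6 and 39.3 CPM against 128 and 145 CPM. That is a fall of 1.85 on the log2 scale (95% interval -2.08 to -1.62, SE 0.111, adjusted p = 5.63e-10). Oasl2 fell by 0.74, Oas3 by 0.75 and Oas1a by 0.61, and none of their 95% intervals reaches that of Oasl1. Oas1a has close copies that are not on the list. Of these, Oas1g fell (log2 fold change -1.01, SE 0.113) and Oas1c was not called (-0.05), while Oas1d, Oas1e, Oas1f and Oas1h had no count. With Oas1a and these copies summed, the log2 fold change was -0.69 (SE 0.0931). Oasl1 and Oasl2 are neighbours with 11003 bases between them, and the ratio of Oasl1 to Oasl2 counts was 0.266 and 0.289 in the cKO libraries against 0.552 and 0.643 in WT.

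Oas2 did not follow its neighbour Oas3. The genes lie 3244 bases apart on chromosome 5, and Oas2 (ENSMUSG00000032690, 120868398 to 120887918) stood at 58.7 and 56.0 CPM in the cKO libraries and at 55.8 and 55.0 CPM in WT. These values are nearly level (log2 fold change 0.05, SE 0.106, 95% interval -0.17 to 0.27, adjusted p = 0.774), while Oas3 went from 240 and 253 CPM to 147 and 145 CPM. The ratio of Oas3 to Oas2 counts was 2.51 and 2.60 in the cKO libraries and 4.29 and 4.6 in WT, with no overlap.

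The 6 sensors of foreign nucleic acid and their cofactors among the effector genes all fell. Other sensors were listed with the genes that induce interferon. Of those, Ddx58 and Cgas fell, while Tlr3, Tlr7 and Tlr9 were not called (log2 fold changes -0.20, -0.27 and 0.49). Zbp1 (ENSMUSG00000027514, chromosome 2, 173048405 to 173060716), a sensor of Z-form nucleic acid that can start cell death, stood at 110 and 116 CPM in the cKO libraries against 221 and 238 CPM in WT (log2 fold change -1.02, SE 0.0982, adjusted p = 3.21e-07). Eif2ak2, which encodes the RNA-activated kinase PKR that halts translation, fell by 0.93 on the log2 scale. Ifih1, the sensor MDA5 of long double-stranded RNA, fell by 0.83, and its regulator Dhx58 (LGP2) fell by 0.58. Ddx60, a helicase counted among the cofactors of RNA sensing, had the lowest level per exon length of all 44 genes in WT, 2.93 CPM per kilobase. It stood at 18.01 and 12.6 CPM against 28.7 and 22.2 CPM, with the largest error of the 6 sensors (log2 fold change -0.74, SE 0.174). Ifi204, a member of the family of DNA-binding HIN-200 proteins, fell by 0.67.

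Among effectors that act on viral particles, membranes and nucleotides, 5 of the 6 tested fell. Rsad2 (ENSMUSG00000020641, chromosome 12, 26492745 to 26506451) encodes viperin, a radical enzyme that turns CTP into a chain terminator of viral RNA synthesis. It stood at 219 and 176 CPM in the cKO libraries and at 821 and 832 CPM in WT, 4.19-fold less in the cKO libraries (log2 fold change -2.07, SE 0.108, adjusted p = 9.04e-11). Cmpk2, the nucleotide kinase whose gene lies 12751 bases from Rsad2 and which supplies CTP, stood at 17.2 and 18.3 CPM against 61.4 and 61.4 CPM (log2 fold change -1.79, SE 0.119). The pair thus lay on the same side, by similar amounts. Isg20, an exonuclease, fell by 0.86, and Samhd1, which removes deoxynucleotides, fell by 0.59, from 305 ± 4.58 to 202 ± 3.61 CPM.

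The abundant membrane proteins of this group differed least between the groups of libraries. Bst2, or tetherin, which holds budding particles on the cell surface, stood at 630 and 714 CPM in the cKO libraries and at 866 and 856 CPM in WT. Its fall of 0.36 on the log2 scale (SE 0.0944, adjusted p = 0.00802) was not called without WT replicate 1 (log2 fold change -0.35, adjusted p = 0.102), without WT replicate 2 (-0.37, adjusted p = 0.0964) or with upper-quartile factors (-0.26, adjusted p = 0.0590). Ifitm3 (ENSMUSG00000025492, chromosome 7, 140589499 to 140590683), which blocks fusion of viruses in endosomes, stood at 1054 and 1296 CPM in the cKO libraries and at 1003 and 1020 CPM in WT. Both cKO values were above both WT values, with a wide gap between the cKO libraries, and the difference did not pass (log2 fold change 0.22, SE 0.102, adjusted p = 0.125). It passed without cKO replicate 1 (0.35, adjusted p = 0.000276), while without cKO replicate 2 the value was 0.058 (adjusted p = 0.723).

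The antiviral pair Parp9 and Dtx3l and the related Parp14 fell, all 3 on chromosome 16. Parp14 (ENSMUSG00000034422, chromosome 16, 35653244 to 35691914), an enzyme that adds single ADP-ribose units, stood at 203 and 196 CPM against 430 and 462 CPM (log2 fold change -1.16, SE 0.0943, adjusted p = 3.51e-08). Dtx3l, a ubiquitin ligase that works as a complex with the protein of Parp9, fell by 0.98 and Parp9 fell by 0.73. The gene spans of Dtx3l and Parp9 overlap by 682 bases on opposite strands, so reads there could be counted under either gene if strand was not used.

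Schlafen proteins, which act on transfer RNA and other RNA, and the large genes Samd9l and Helz2 also fell, 4 of 4. Slfn5 (ENSMUSG00000054404, chromosome 11, 82842175 to 82855666) went from 890 and 820 CPM in WT to 439 and 383 CPM in the cKO libraries (log2 fold change -1.06, SE 0.0981, adjusted p = 2.02e-07). Slfn8, 37317 bases away, fell by 1.003, Samd9l, a translation inhibitor, fell by 0.72 and Helz2, a helicase and transcriptional coactivator, fell by 0.66. The nuclear body genes Sp100 and Daxx, which repress incoming viral genomes, were near each other in size of fall. Sp100 (ENSMUSG00000026222, chromosome 1, 85577709 to 85637719) stood at 95.8 and 84.6 CPM against 146 and 144 CPM (log2 fold change -0.69, SE 0.103, adjusted p = 5.89e-05), and Daxx fell by 0.62.

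The other 10 interferon-induced genes were the most mixed, with 6 lower, 1 higher and 3 that did not pass. Ifi44 (ENSMUSG00000028037, chromosome 3, 151436559 to 151455597), a cytoplasmic protein, stood at 13.7 and 13.6 CPM in the cKO libraries against 37.2 and 36.5 CPM in WT (log2 fold change -1.43, SE 0.133, adjusted p = 2.01e-07). Trim30a, a TRIM protein of the mouse, fell by 1.01, Ifi35 and its partner Nmi fell by 0.95 and by 0.92, the apoptosis factor Xaf1 fell by 0.84 and Tor3a fell by 0.61.

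Ifi27l2a was the exception that rose. Ifi27l2a (ENSMUSG00000079017, chromosome 12, 103408426 to 103409939), a small hydrophobic interferon-induced protein, stood at 123 and 118 CPM in the cKO libraries and at 65.2 and 68.3 CPM in WT. Both cKO libraries were well above both WT libraries (log2 fold change 0.85, SE 0.102, adjusted p = 5.01e-06), and the rise was called in every other setting tried. Its close copy Ifi27l2b had 1 count in all 4 libraries together.

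The 3 genes of this group that did not pass stayed near level. Rtp4, a chaperone of membrane receptors, stood at 104 and 107 CPM against 119 and 120 CPM (log2 fold change -0.18, SE 0.0985, 95% interval -0.39 to 0.03, adjusted p = 0.189). Its span overlaps Masp1 on the opposite strand by 525 bases. Pnpt1, a mitochondrial exoribonuclease, stood at 18.8 and 20.5 CPM against 20.8 and 22.2 CPM (log2 fold change -0.13, SE 0.140, 95% interval -0.43 to 0.16, adjusted p = 0.525). Lgals3bp, a secreted glycoprotein that binds galectin-3, stood at 519 and 536 CPM against 457 and 481 CPM (log2 fold change 0.17, SE 0.0908, 95% interval -0.02 to 0.36, adjusted p = 0.175). With upper-quartile factors Lgals3bp was called higher (0.27, adjusted p = 0.0388), and so was Ifitm3 (0.32, adjusted p = 0.0370). The groups of these 3 genes do not overlap, but no 95% interval of their differences excludes 0.

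**Figure D3:**
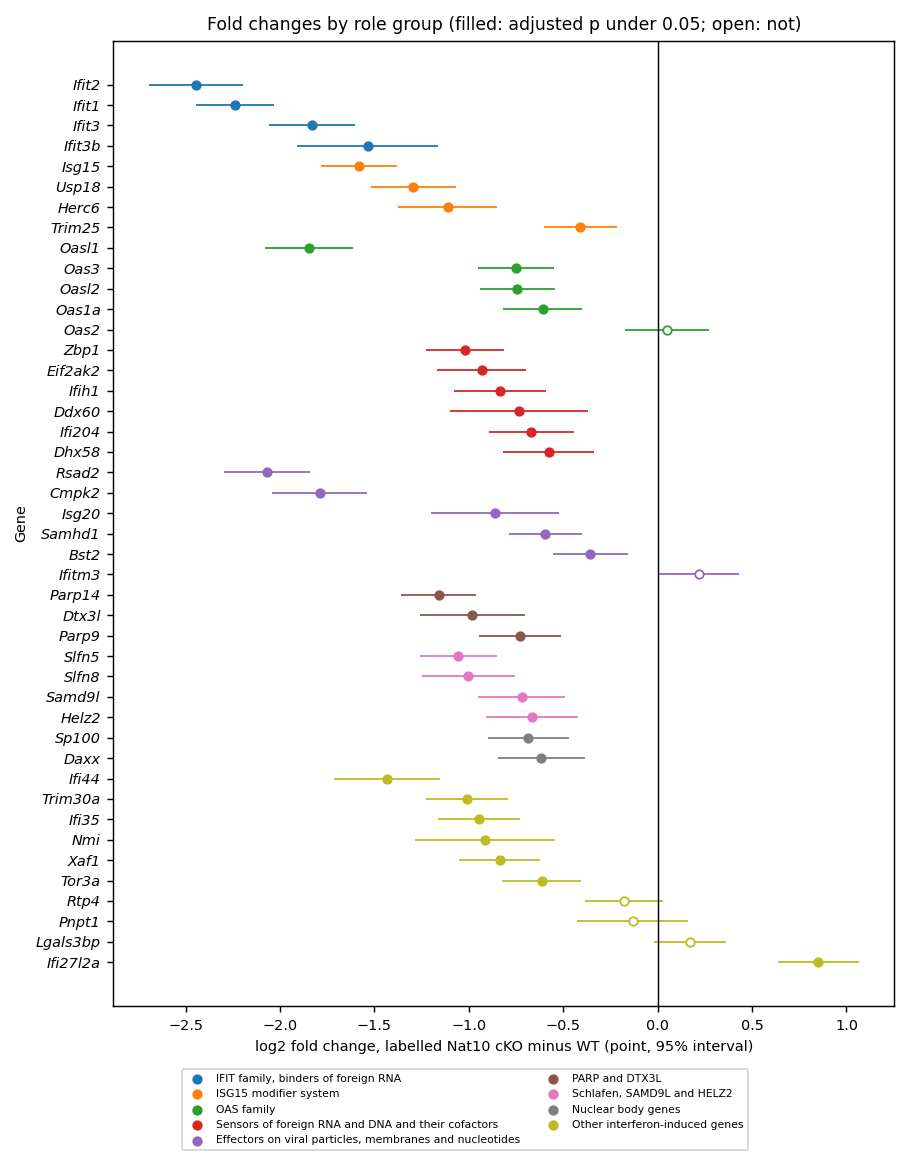
log2 fold change of each effector gene, cKO minus WT libraries, with its 95% interval, ordered within role groups and coloured by them. Filled points have an adjusted p under 0.05, and the open points are Oas2, Ifitm3, Rtp4, Pnpt1 and Lgals3bp.

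Levels in CPM were compared between genes per kilobase of exon, since a longer transcript yields more reads. In WT the highest levels were those of Ifitm3 (1492 CPM per kilobase), Bst2 (954) and Isg15 (452), followed by Rsad2 (191), Lgals3bp (165), Ifit1 (161), Ifi27l2a (144) and Slfn5 (135). Lgals3bp and Ifit1 differed there by less than their spread over the WT libraries. In the cKO libraries the order was Ifitm3 (1733), Bst2 (744), Ifi27l2a (260), Lgals3bp (185) and Isg15 (151), so that Ifi27l2a stood above Isg15. Ifit1, at 34.2 CPM per kilobase there, and Rsad2, at 45.5, were below Slfn5 at 65.0.

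**Figure D4:**
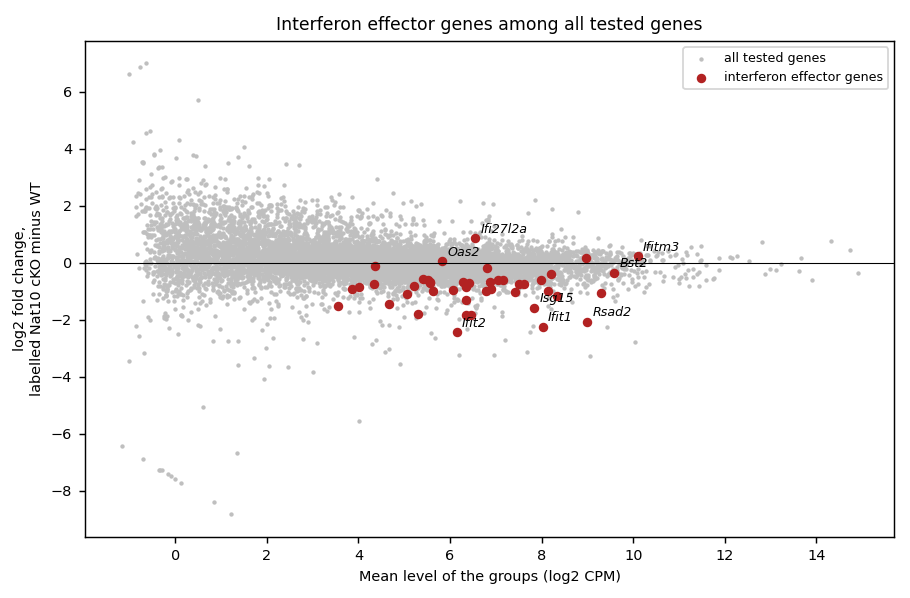
log2 fold change against mean level (log2 CPM) for all 11448 tested genes (grey) and the 44 effector genes (red). The effector genes lie from -2.44 (Ifit2) to 0.85 (Ifi27l2a), with a median of -0.84 against 0.00745 for all tested genes.

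Genes that make, sense or relay interferon were listed separately from the effectors. Of 16 interferon genes listed, 14 had no count in any library. Ifnb1 had 0 and 0 counts in the cKO libraries and 4 and 3 in WT, and Ifng, the type II interferon, had 0 and 0 against 5 and 3. Both were too low to test. With the cKO group set at a floor of 3 counts and totals taken into account, the WT counts would be 2.56-fold higher for Ifnb1 and 2.93-fold higher for Ifng. The counting error of the few WT counts is not in these values, so they do not set a least difference.

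The chains of the type I receptor were not called, and most of the factors that act below them fell. For Ifnar1 the log2 fold change was -0.15 (adjusted p = 0.310), and for Ifnar2 it was -0.24 (adjusted p = 0.0909). Of the 6 receptor genes tested, 1 passed, Ifngr1 of the interferon gamma receptor, at 41.96 and 40.8 CPM against 28.3 and 36.1 CPM (log2 fold change 0.36, adjusted p = 0.0447). It was not called without WT replicate 1 (0.19, adjusted p = 0.495) or without cKO replicate 1 (0.32, adjusted p = 0.0664), nor with DESeq2 (adjusted p = 0.143) or RLE factors (adjusted p = 0.0527), and 8 of 12 settings called it. Ifngr2 (-0.15), Ifnlr1 (0.24) and Il10rb (-0.01) did not pass.

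Among the receptor kinases and transcription factors, Stat2, Irf9, Jak2 and Tyk2 fell. Stat2 stood at 45.1 and 45.6 CPM in the cKO libraries and at 83.9 and 71.9 CPM in WT (log2 fold change -0.78, SE 0.111, adjusted p = 3.54e-05). The groups did not overlap, and the call held in every other setting. Irf9, the partner that gives the complex its DNA contact, stood at 48.9 and 48.2 CPM against 59.2 and 60.6 CPM, closer together (log2 fold change -0.30, SE 0.106, adjusted p = 0.0399). It was called in 4 of 12 settings. Its adjusted p ranged from 0.0111 to 0.233 over the settings and reached 0.169 without WT replicate 1, 0.233 without WT replicate 2 and 0.0740 without cKO replicate 2. The kinase genes Jak2 (-0.40) and Tyk2 (-0.46) fell. Without WT replicate 2 the values were -0.40 and -0.47 but were not called (adjusted p = 0.0772 and 0.0543). Jak1, at -0.14, did not pass (adjusted p = 0.365), but it did without cKO replicate 1 (-0.31, adjusted p = 0.00523).

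Of 16 tested genes that induce interferon 6 fell. Myd88, the adaptor of most Toll-like receptors, stood at 62.2 and 64.2 CPM against 117 and 119 CPM (log2 fold change -0.90, SE 0.102, adjusted p = 2.42e-06). Ddx58, the RNA sensor RIG-I, fell by 0.60 and Cgas, the sensor of cytosolic DNA, by 0.58. Irf7, the factor that amplifies interferon production, stood at 396 and 391 CPM against 511 and 484 CPM (log2 fold change -0.34, adjusted p = 0.00910). The kinase genes Ikbke (-0.38) and Tbk1 (-0.30) also passed. Without WT replicate 1 the adjusted p was 0.178 for Irf7, 0.109 for Ikbke and 0.158 for Tbk1, and without WT replicate 2 it was 0.0830, 0.0811 and 0.258. Tbk1 was called in 4 of 12 settings, and it was lost also without cKO replicate 1 (adjusted p = 0.158), with DESeq2 (0.122) and under other scalings and filters.

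Of 9 genes that restrain the pathway 4 fell. Socs1, which blocks the receptor kinases, stood at 13.2 and 19.1 CPM against 32.5 and 34.99 CPM (log2 fold change -1.05, SE 0.156). Socs3 fell by 0.63, the phosphatase gene Ptpn1 by 0.37 and the repressor Irf2 by 0.38. Without WT replicate 1 the adjusted p was 0.141 for Ptpn1 and for Irf2, without WT replicate 2 it was 0.0688 and 0.146, and without cKO replicate 2 it was 0.0506 and 0.141. Irf2 was called in 5 of 12 settings, and DESeq2 gave it an adjusted p of 0.133. Over the pathway lists together, 15 of 37 tested genes fell, 1 rose and 21 did not pass, with a median log2 fold change of -0.24. The call was kept in every setting by 7 of the 16, among them Stat2, Cgas, Ddx58, Myd88, Socs1 and Socs3. The count called was 9 without WT replicate 1 and 8 without WT replicate 2.

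**Figure D5:**
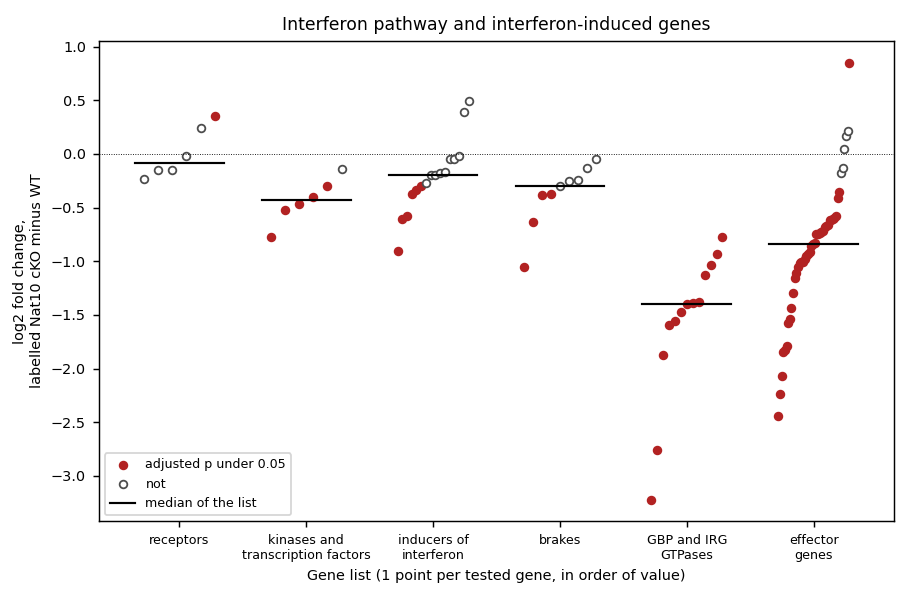
log2 fold change, cKO minus WT libraries, of genes of the interferon pathway, of the GBP and IRG GTPases and of the 44 effector genes by list, filled where the adjusted p is under 0.05, with the median of each list as a line. The receptor genes lie between -0.24 and 0.36, Stat2 lies at -0.78, and the GTPases reach -3.22 in Gbp5.

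The GBP and IRG GTPases, which attack the membranes around intracellular microbes and are induced mainly by interferon gamma, are the neighbouring set of interferon-induced genes. All 13 tested fell, with a median log2 fold change of -1.40 beside -0.84 for the antiviral effectors. Gbp5 stood at 15.5 and 12.9 CPM against 132 and 132 CPM (log2 fold change -3.22, SE 0.123), and Gbp2 at 59.2 and 61.1 CPM against 222 and 219 CPM (-1.87, SE 0.101). Whether the GTPases differ from the antiviral effectors was not tested.

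The targeted gene, and the calls over all tested genes by setting, were as follows. The Nat10 counts were 184 and 205 for the cKO libraries against 165 and 238 for WT, and its fall was not called (log2 fold change -0.24, SE 0.153, adjusted p = 0.263), so the counts do not check the labels and the deleted exons are not known here. Over all tested genes 1650 fell and 1652 rose. The split was 1110 lower and 2247 higher with upper-quartile factors and 1252 and 2026 with library sizes alone. Without WT replicate 1 the total called was 2068 and without WT replicate 2 it was 1837, of 3302.

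Markers of the cultured cells were present. Summed osteoclast markers stood at 6388 and 7112 CPM in the cKO libraries and at 4987 and 5252 CPM in WT, with 7 of 12 higher and 3 lower. Summed macrophage markers stood at 30288 and 34145 CPM against 19255 and 21231 CPM, with 5 of 10 higher and 2 lower (Cd14 and Mrc1). Lyz2 alone held most of the macrophage sum, at 23576 and 27513 CPM against 14092 and 15918 CPM. The list for plasmacytoid dendritic cells, known as strong producers of type I interferon, summed to 169 and 141 CPM against 256 and 232 CPM. Of its 6 tested genes 2 fell (Tcf4 and Lair1), and its defining marker Siglech was at 0.102 to 1.25 CPM. Tcf4 and Lair1 held most of the sum, with means of 79.8 and 63.1 CPM in the cKO libraries against 136.7 and 93.9 CPM in WT. The other 4 tested genes were not called, and no other gene of the list was above 5.64 CPM. The list for conventional dendritic cells summed to 108 and 105 CPM against 114 and 121 CPM. Of its 4 tested genes 1 fell, Ccr7 (log2 fold change -1.25, adjusted p = 3.62e-04). Erythroid markers summed to at most 1.10 CPM.

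Sums of markers of other cells differed between the groups. Stromal and osteoblast markers summed to 1023 and 987 CPM in the cKO libraries against 264 and 254 CPM, with 10 of 11 tested higher. Neutrophil markers summed to 852 and 952 CPM against 564 and 550 CPM, with 5 of 8 higher and 2 lower (Mmp8 and Csf3r). S100a8 and S100a9 held most of this sum, with means of 401 and 254 CPM in the cKO libraries against 199 and 159 CPM in WT. Ly6g had no count in any library. T and NK cell markers summed to 1.98 and 2.23 CPM against 4.59 and 5.09 CPM, with Cd3d, Cd3g, Ncr1 and Nkg7 at 0 counts, and the tested gene, Cd4, fell (log2 fold change -1.40, adjusted p = 0.00356). B cell markers summed to 13.3 and 13.4 CPM against 5.10 and 5.64 CPM. Endothelial markers summed to 19.0 and 19.98 CPM against 74.6 and 71.9 CPM, with 2 of 3 tested lower. These were Kdr and Vwf, which held most of the sum. Pecam1 was not called (log2 fold change 0.42), and Cdh5, Tek and Emcn were at 0.41 CPM or less in every library. The part of these markers in the lower level of the effector genes was not tested.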

How the data were processed

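Total RNA of 2 Nat10 cKO and 2 WT libraries, grouped by their labels, was analysed from the deposited raw counts per gene, which hold whole numbers that the authors did not normalize. Per the submitters' processing notes fastp 0.20.0, STAR 2.7.9a and featureCounts 2.0 were used. Whether counting used strand is not given. Gene coordinates in the deposited table are on GRCm39.

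Genes were filtered with filterByExpr, which kept 11448 of 21834, and scaled with TMM factors. Groups were compared by edgeR 4.0.16 (glmQLFit and glmQLFTest, with limma 3.58.1 and R 4.3.3) without covariates, and p-values were adjusted by Benjamini and Hochberg over all tested genes. The threshold was 0.05. Procedures were tested on simulated data. Exon lengths and transcripts came from GENCODE vM21 by Ensembl ID. Total counts ran from 10037338 to 14097638. The libraries of a group differed by more than counting noise. DESeq2 1.42.0, other factors and filters, summed copies, a replicate block and leaving out each library were alternatives.

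The effector genes and the lists were chosen with earlier results of these data known. Given in full were the smallest p-value of each of 9 role groups and every effector gene not called lower, with the called pathway genes, the tested receptor, kinase and transcription factor genes, 2 GTPases and Nat10. The copies that are not on the list were named after their values were seen. The values of 1 pathway gene are not reported here.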

Additional observations from a re-analysis of the deposited data

How the results depend on the processing

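The effector genes called lower numbered 36 to 38 over the settings, and 40 of 44 log2 fold changes were negative in each. Effector genes called higher numbered 3 with upper-quartile factors, 2 with library sizes alone and 2 with a replicate block, and 1 to 2 when single libraries were left out. Over all tested genes, DESeq2 called 1065 higher, and leaving out single libraries gave 1837 to 3501 calls, 973 to 1925 lower and 864 to 1576 higher. Pathway calls ran from 8 to 17 on leaving out single libraries. The cause was not tested. Upper-quartile factors moved the median of all genes to 0.11 (log2). Signs turned for genes not called: Ifnlr1 ranged from -0.081 (without WT replicate 1) to 0.75 on leaving out single libraries, Jak1 from -0.31 to 0.0025 (without cKO replicate 2) and Il10rb from -0.12 to 0.091 (without WT replicate 2). Il10rb was at 0.083 with upper-quartile factors, 0.052 with library sizes and 0.017 at a mean of at least 5 CPM. The labels do not pair libraries by replicate number. Deviations of same-numbered libraries correlated at 0.130 over all genes and at 0.641 over the effector genes, and the block called 4301 genes. Under the block Ifitm3 was called (0.21, adjusted p = 0.0136, edgeR) and so was Ifnar2 (-0.24, adjusted p = 0.0301). Depth was 10037338 to 14097638 counts, at which 14 of 16 interferon genes were not detected.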

Other observations

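Relatives of the effector genes that are not on the list showed falls in some families and 2 rises in the IFITM family. The HIN-200 family, DNA-binding proteins encoded together on chromosome 1, includes Ifi204, whose fall was 0.67 on the log2 scale. Its relative Ifi205 stood at 9.82 and 8.56 CPM in the cKO libraries and at 44.1 and 39.9 CPM in WT (log2 fold change -2.19, SE 0.144), and Ifi203 at 41.6 and 39.5 CPM against 99.9 and 103 CPM (-1.33, SE 0.106). Summed over 11 genes of that family the log2 fold change was -1.14 (SE 0.0934, adjusted p = 5.66e-07, edgeR). These genes are close copies, so their separate values are uncertain.

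Of 4 IFITM genes on chromosome 7 that were looked at, Ifitm2 and Ifitm6 rose, and Ifitm1 and Ifitm3 were not called. Ifitm2 stood at 198 and 230 CPM against 157 and 162 CPM (log2 fold change 0.42, SE 0.101, adjusted p = 0.00381, edgeR), and Ifitm6 at 10.4 and 11.4 CPM against 2.55 and 2.19 CPM (2.21, SE 0.243, adjusted p = 1.78e-06, edgeR). Ifitm1 was low, at 0.626 to 1.67 CPM, and its difference did not pass. With the 4 genes summed, the change was 0.25 on the log2 scale (adjusted p = 0.0694, SE 0.0984, edgeR), in which Ifitm3 holds most of the counts.

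Slfn9, the close copy of Slfn8, stood at 7.50 and 10.8 CPM against 6.63 and 8.38 CPM with overlapping groups, and the pair summed had a log2 fold change of -0.80 (SE 0.106), smaller than the -1.003 of Slfn8 alone.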
